A study of Rattus norvegicus with 20 samples.

Results

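Fatty acid oxidation genes and classic targets of the nuclear receptor PPARA were read in rat liver after dosing with PBDE-47, a flame retardant of the polybrominated diphenyl ether class. The set is a fixed list of 34 genes chosen by function, with earlier results of these data known. Each gene was read from its brightest probe set that carries a single gene symbol. Of the 34 genes, 33 had such a probe set among the 14217 genes that the arrays represent in that way. The exception was Acaa1a, a peroxisomal thiolase. By place of action the list holds 6 peroxisomal genes, 16 mitochondrial genes, 4 microsomal genes and 8 others.

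Wistar Han rat dams received corn oil alone or PBDE-47 in corn oil by gavage, at daily doses of 0.1, 15 or 50 mg/kg. The dams were 11 to 12 weeks old, and dosing ran from day 6 of gestation until day 4 after birth. RNA of the left lateral liver lobe was hybridised to 20 Affymetrix arrays, 5 per group. The 4 groups are vehicle, 0.1, 15 and 50 mg/kg, and every array carries the label female. Whether the livers were those of dams or of their pups is not stated in the labels, nor is the litter. Nothing in them says that arrays of 1 group were separate animals, so the p-values measure only the spread between these samples, which may be technical. The series was designed to compare each dose with vehicle.

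In liver, long-chain fatty acids are activated to acyl-CoA and then shortened either in mitochondria, which they enter as carnitine esters, or in peroxisomes, which handle very long and dicarboxylic chains. Microsomal CYP4A enzymes add a terminal hydroxyl group and so start the formation of dicarboxylic acids. PPARA binds DNA as a partner of RXR at direct repeats of a hexamer spaced by a single base, and in rodent liver its activation raises genes in all of these compartments, with Cyp4a and peroxisomal genes among the most responsive.

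To show where such letters lie, the promoter window of each gene (250 bases before to 50 after its annotated start, RefSeq, build GRCr8) was searched on both strands for the direct repeat AGGTCANAGGTCA. An entry was matched for 28 of the 34 genes. No window of a listed gene held the repeat without mismatch, against 0.0583% of the windows of 27457 genes. With up to 2 mismatches it was found in 6 of 28 listed genes, against 3.71% of all genes. All 6 matches are shown, and they cover every compartment. As given further on, none lies in a gene that passed at 50 mg/kg against vehicle, while Slc25a20 passed against 0.1 mg/kg. Each is read 5′ to 3′ on the strand that carries the repeat. Capitals mark the letters that match, and lower case marks mismatches and the spacer.
Crat: AGGaCAccGGTCA
Slc25a20: AGGTgAaAGGTCg
Acadvl: AGGTCAgtGGTCA
Slc27a2: AtcTCAaAGGTCA
Fabp1: AGGcCAtAGGTCA
Creb3l3: AGGggAgAGGTCA
The matches with a single mismatch are those of Acadvl (chr10:55236710-55236722, minus strand, bases -17 to -5 from the start) and Fabp1 (chr4:104749263-104749275, minus strand, bases -77 to -65). Those with 2 are in Crat (chr3:34087310-34087322, minus strand), Slc25a20 (chr8:118243588-118243600, plus strand), Slc27a2 (chr3:134258025-134258037, minus strand) and Creb3l3 (chr7:9273126-9273138, plus strand). The single hexamer AGGTCA, which overlaps some of these matches, was found in 8 of 28 listed genes and in 15.7% of all genes. The related element TCAAGGTCA was found in 0 of 28 and in 0.412% of all genes. These are matches of letters and not binding sites, and binding was not measured.

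Whole windows are given for Pdk4 and Ehhadh, which passed at 50 mg/kg, and for Fabp1, which did not. Capitals mark every match to AGGTCANAGGTCA with up to 3 mismatches on either strand, a laxer criterion that 24.4% of all genes and 11 of 28 listed genes met. The windows are chr4:34568280-34568579 (minus strand), chr11:92746159-92746458 (plus strand) and chr4:104749090-104749389 (plus strand), each 300 bases, 5′ to 3′ in the direction of the gene.
Pdk4: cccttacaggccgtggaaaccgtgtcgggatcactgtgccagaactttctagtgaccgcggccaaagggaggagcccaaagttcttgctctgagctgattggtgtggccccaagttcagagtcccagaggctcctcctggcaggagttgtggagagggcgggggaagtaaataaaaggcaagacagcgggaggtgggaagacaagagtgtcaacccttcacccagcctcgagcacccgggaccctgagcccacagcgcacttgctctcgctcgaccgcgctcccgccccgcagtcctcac
Ehhadh: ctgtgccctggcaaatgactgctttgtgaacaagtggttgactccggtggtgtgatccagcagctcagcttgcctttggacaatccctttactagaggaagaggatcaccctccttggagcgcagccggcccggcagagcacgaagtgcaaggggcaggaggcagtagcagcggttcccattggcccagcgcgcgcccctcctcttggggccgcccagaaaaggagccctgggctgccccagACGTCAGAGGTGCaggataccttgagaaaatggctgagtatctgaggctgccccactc
Fabp1: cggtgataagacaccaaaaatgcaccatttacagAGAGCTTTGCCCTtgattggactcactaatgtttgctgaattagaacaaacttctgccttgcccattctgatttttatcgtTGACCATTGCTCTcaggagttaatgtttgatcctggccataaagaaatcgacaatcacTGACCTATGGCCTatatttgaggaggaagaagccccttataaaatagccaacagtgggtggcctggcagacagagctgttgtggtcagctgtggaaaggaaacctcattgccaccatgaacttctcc
The Pdk4 window held 0 such matches, the Ehhadh window 1 across its start, and the Fabp1 window 3. For Pdk4 this says only that these letters are not in this window.

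All values below are log2 RMA values of a probe set, so levels are not compared between genes. Array medians lay between 5.605 and 5.648, and the correlation between any pair of arrays was 0.9826 to 0.9953. The mean of 9 hepatocyte genes, Alb among them, was 13.8 to 14.0 on every array. Skeletal muscle genes were high on several arrays: the mean of 12 of them ranged from 3.97 to 8.63 in vehicle, 4.09 to 9.09 at 0.1 mg/kg, 4.12 to 9.02 at 15 mg/kg and 4.26 to 7.21 at 50 mg/kg. The mean of 12 exocrine pancreas genes was 6.99 to 7.09 on 3 arrays, 0.1 mg/kg replicate 2 and 15 mg/kg replicates 3 and 5, and 4.45 to 4.80 on the others. Muscle cells oxidise fatty acids too, so results are also given without the 9 arrays on which either mean exceeded its lowest value in the series by more than 2. That leaves 4 vehicle arrays, 1 at 0.1 mg/kg, 3 at 15 mg/kg and 3 at 50 mg/kg. On the kept arrays the muscle mean was 3.97 to 4.45 in vehicle and 4.26 to 5.96 at 50 mg/kg, so these groups still differed in muscle transcripts.

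At 50 mg/kg against vehicle Pdk4, Eci1 and Cpt2 rose among the mitochondrial genes and Ehhadh among the peroxisomal genes, while the microsomal Cyp4a1 and Cyp4a3 did not pass. Of the 33 measured genes, 4 rose and 0 fell at an adjusted p under 0.05 (limma, Benjamini-Hochberg over 31042 probe sets), and 29 did not pass. Over all probe sets 0.934% passed (0.586% rose and 0.348% fell). The log2 change was positive for 32 of the 33 genes, against 53% of all probe sets, and its median was 0.17 against 0.009. At an unadjusted p under 0.05, 7 of 33 were higher and 0 lower, against 6.89% and 6.13% of all probe sets. Of the marker lists, 0 of 12 muscle genes passed (11 positive, median 0.51), 0 of 7 adipocyte genes (6 positive, median 0.16) and 0 of 8 erythroid genes (0 positive, median -0.38). The mean of the adipocyte genes was 6.77 to 7.11 in vehicle, 6.67 to 6.97 at 0.1 mg/kg, 6.97 to 7.39 at 15 mg/kg and 6.96 to 7.22 at 50 mg/kg. The mean of the erythroid genes was 10.11 to 10.82 in vehicle, 9.19 to 11.29 at 0.1 mg/kg, 9.07 to 11.15 at 15 mg/kg and 9.26 to 10.88 at 50 mg/kg. The part of these lists in the values was not tested. Leaving out vehicle replicate 2, 3, 4 or 5, or any 1 of the 50 mg/kg arrays, reduced the 4 rises to 1 or 2, and without the 9 muscle or pancreas arrays 1 remained, Pdk4. In that reduced fit 31 of 33 changes were positive, with a median of 0.24.

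**Figure D1:**
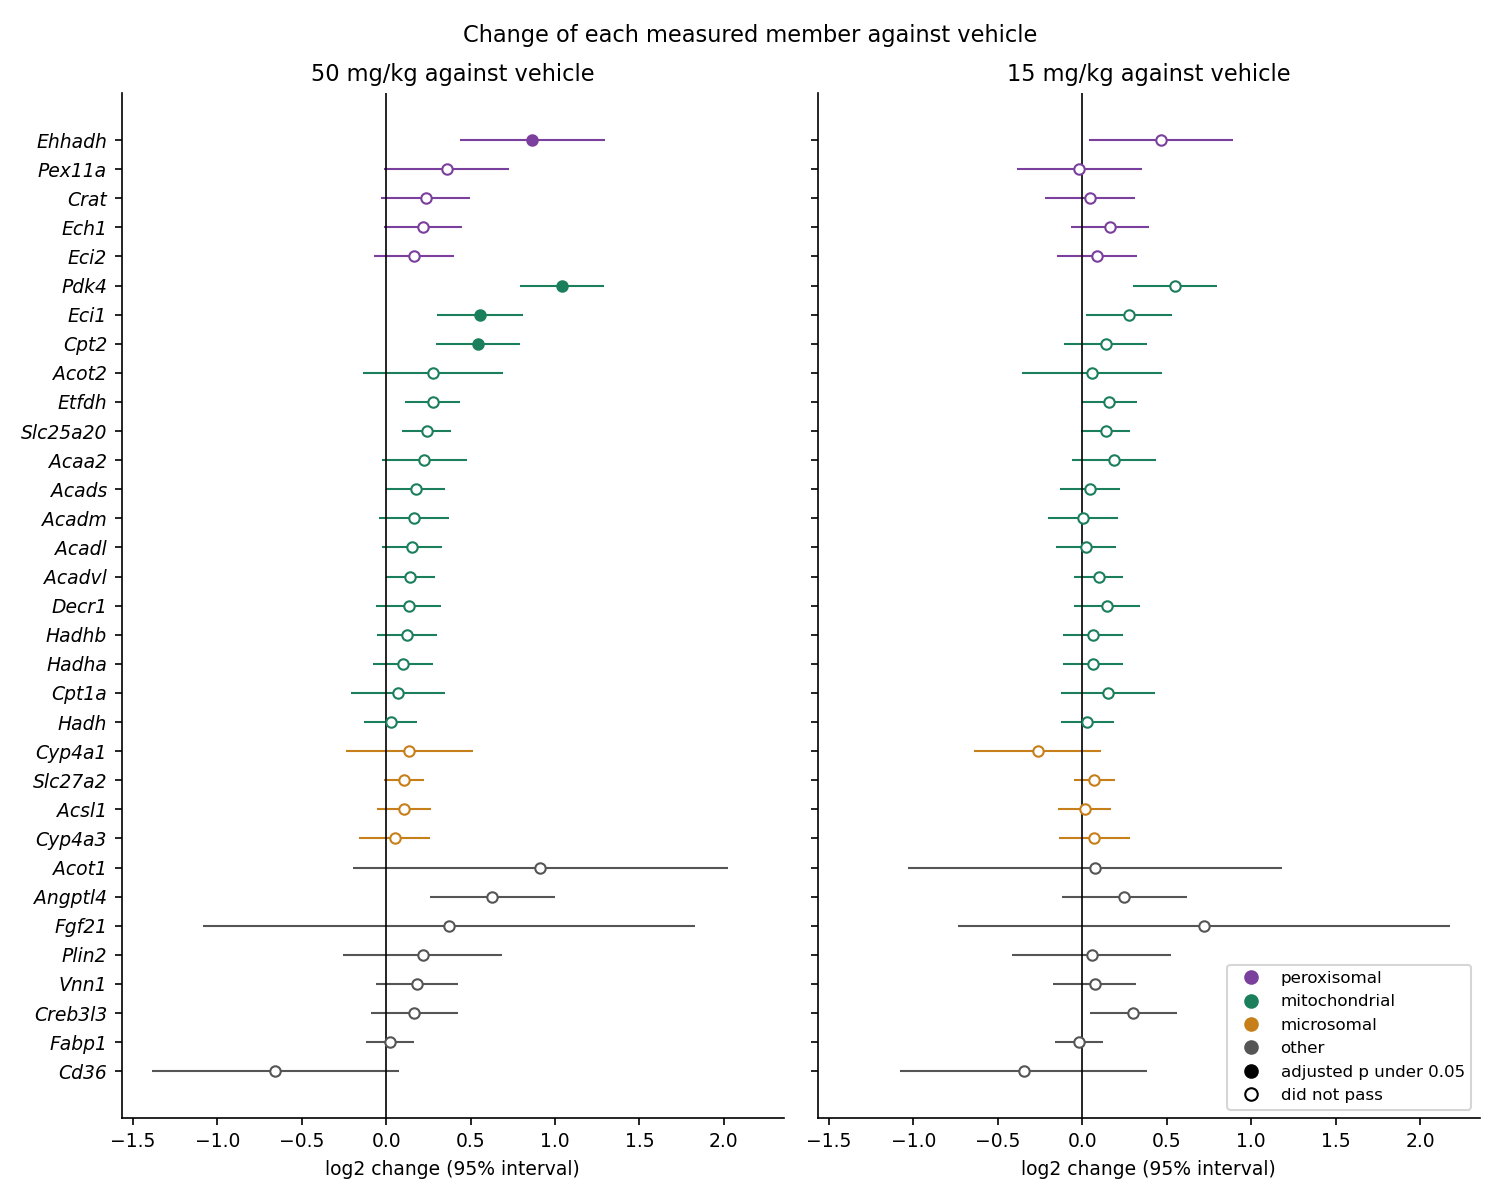
The log2 change of each of the 33 measured genes against vehicle (x axis, log2 units, with 95% interval) at 50 mg/kg (left) and 15 mg/kg (right), coloured by compartment. Filled points passed at an adjusted p under 0.05: 4 genes at 50 mg/kg and 0 at 15 mg/kg. Nearly all points at 50 mg/kg lie right of 0, with Cd36 at -0.66 the exception.

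Ehhadh encodes the bifunctional hydratase and dehydrogenase of the peroxisomal beta-oxidation spiral. It read 10.44, 11.09, 10.19, 9.93 and 11.22 on the vehicle arrays, 10.25, 10.46, 10.30, 10.89 and 10.53 at 0.1 mg/kg, 11.39, 10.93, 10.61, 11.24 and 11.04 at 15 mg/kg, and 11.33, 11.27, 11.69, 11.36 and 11.54 at 50 mg/kg. All 5 arrays at 50 mg/kg were above all vehicle arrays, as was so for 1.78% of all probe sets, while the 15 mg/kg arrays overlapped with both. Ehhadh increased 1.82-fold at 50 mg/kg (a log2 change of 0.87, SE 0.20, adjusted p = 0.0481). The vehicle arrays spread widely (SD 0.56, against 0.17 at 50 mg/kg). The call was lost when any array was left out except vehicle replicate 2 or 5, 0.1 mg/kg replicate 4 or 15 mg/kg replicate 3, with log2 changes of 0.70 to 1.03 and adjusted p up to 0.129. Without the muscle and pancreas arrays the change was 1.06 (adjusted p = 0.230). The call was also lost with only the 2 groups fitted (adjusted p = 0.154), with a block on the first digit of the description number (0.0668) and with an intensity trend (0.0604).

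Pex11a encodes a membrane protein that takes part in the division of peroxisomes. It read 7.83, 6.93, 6.84, 6.84 and 6.79 in vehicle, 6.78, 6.30, 6.73, 6.86 and 6.44 at 0.1 mg/kg, 7.34, 6.93, 6.63, 7.33 and 6.89 at 15 mg/kg, and 7.42, 7.40, 7.15, 7.52 and 7.53 at 50 mg/kg. Vehicle replicate 1 was higher than every treated array, and the other 4 vehicle arrays were below every array at 50 mg/kg. The log2 change against vehicle was 0.36 (SE 0.18, adjusted p = 0.402), and without vehicle replicate 1 it was 0.56 (adjusted p = 0.0679). A second, dimmer Pex11a probe set, 1387740_at, was also highest in vehicle replicate 1, at 5.45 against 4.17 to 4.40 on the other vehicle arrays. Its log2 change at 50 mg/kg against vehicle was 0.05 (SE 0.19, adjusted p = 0.943).

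The other 3 peroxisomal genes, each also known in mitochondria, did not pass. Crat (carnitine acetyltransferase), Ech1 (dienoyl-CoA isomerase) and Eci2 (enoyl-CoA isomerase) had log2 changes of 0.23, 0.22 and 0.16 at 50 mg/kg. Acaa1a is listed on probe set 1387783_a_at together with another gene, so its values cannot be assigned to either. That probe set read 11.76, 11.76, 11.65, 11.82 and 11.99 in vehicle and 11.94, 11.96, 12.26, 12.14 and 12.29 at 50 mg/kg, which overlap through vehicle replicate 5. Its log2 change was 0.32 (SE 0.084, adjusted p = 0.0801).

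Pdk4, a mitochondrial kinase that blocks pyruvate dehydrogenase and so spares glucose when fat is burned, was the gene with the clearest change. It read 9.25, 8.64, 9.16, 9.08 and 9.25 in vehicle, 8.80, 8.58, 8.83, 9.05 and 9.03 at 0.1 mg/kg, 9.65, 9.34, 9.64, 9.60 and 9.90 at 15 mg/kg, and 10.20, 10.00, 10.12, 10.02 and 10.25 at 50 mg/kg. Every array at 15 mg/kg was above every vehicle array, and every array at 50 mg/kg was above every array at 15 mg/kg. At 50 mg/kg Pdk4 was 2.06-fold above vehicle (log2 change 1.04, SE 0.12, adjusted p = 7.3e-05). The call held with each array left out in turn, at log2 changes of 0.93 to 1.08, and without the muscle and pancreas arrays, at 0.94 (adjusted p = 0.0111). A second Pdk4 probe set, 1369150_at, also rose (log2 change 0.53, SE 0.091, adjusted p = 0.00577), with all 5 arrays at 50 mg/kg above all vehicle arrays.

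Cpt2, which turns acylcarnitine back into acyl-CoA inside the mitochondrion, read 10.34, 9.72, 9.69, 9.69 and 9.56 in vehicle, 9.82, 9.67, 9.73, 9.75 and 9.47 at 0.1 mg/kg, 10.00, 9.87, 9.82, 10.16 and 9.84 at 15 mg/kg, and 10.20, 10.34, 10.33, 10.58 and 10.27 at 50 mg/kg. Vehicle replicate 1 lay among the arrays at 50 mg/kg, and the other 4 vehicle arrays were below all of them. The 1.46-fold rise of Cpt2 passed (log2 change 0.54, SE 0.12, adjusted p = 0.0340). Without vehicle replicate 1 the log2 change was 0.68 (adjusted p = 0.000519). The call was lost without vehicle replicate 2, 3, 4 or 5 or 50 mg/kg replicate 2, 3, 4 or 5, at log2 changes of 0.48 or more and adjusted p up to 0.110, without the muscle and pancreas arrays (0.49, adjusted p = 0.427) and with only the 2 groups fitted (adjusted p = 0.144).

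Eci1, the mitochondrial enoyl-CoA isomerase needed for unsaturated chains, read 11.17, 11.05, 10.79, 10.79 and 11.01 in vehicle, 11.13, 11.09, 10.83, 11.05 and 10.43 at 0.1 mg/kg, 11.35, 11.45, 11.10, 11.28 and 11.02 at 15 mg/kg, and 11.54, 11.26, 11.69, 11.56 and 11.54 at 50 mg/kg. The arrays at 50 mg/kg were all above the vehicle arrays, and 50 mg/kg replicate 2 lay within the range at 15 mg/kg. Eci1 was 1.47-fold higher than in vehicle (log2 change 0.56, SE 0.12, adjusted p = 0.0352). The call was lost without vehicle replicate 2, 3, 4 or 5 or 50 mg/kg replicate 1, 3, 4 or 5, with log2 changes of 0.51 to 0.62 over all 20 left-out fits and adjusted p up to 0.0985. Without the muscle and pancreas arrays it was lost at an unaltered 0.56 (adjusted p = 0.192). A second Eci1 probe set, 1370961_at, was dim (mean 4.14) and its change was 0.01. With both sets averaged, the Eci1 log2 change at 50 mg/kg was 0.28 (adjusted p = 0.04975).

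Of the other members of the carnitine shuttle, neither passed. Slc25a20, the carnitine and acylcarnitine carrier of the inner membrane, read 10.09, 9.74, 9.82, 9.72 and 9.87 in vehicle and 9.98, 10.21, 10.11, 10.07 and 10.07 at 50 mg/kg, with vehicle replicate 1 inside the upper range. Its log2 change was 0.24 (SE 0.069, adjusted p = 0.114), and it passed only without vehicle replicate 1 (0.30, adjusted p = 0.0267). Cpt1a, the rate-controlling entry step, read 12.19, 11.66, 11.93, 11.80 and 11.94 in vehicle and 11.62, 12.10, 12.26, 12.04 and 11.85 at 50 mg/kg. These groups overlapped almost fully (log2 change 0.07, 95% interval -0.21 to 0.35, adjusted p = 0.881), and a second Cpt1a probe set, 1367836_at, gave -0.03.

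None of the dehydrogenases and thiolases of the mitochondrial spiral passed. The acyl-CoA dehydrogenases Acadvl, Acadl, Acadm and Acads, ordered from very long to short chains, had log2 changes of 0.14, 0.15, 0.16 and 0.17. The trifunctional protein subunits Hadha and Hadhb had 0.10 and 0.12, the short-chain dehydrogenase Hadh 0.03, the thiolase Acaa2 0.22 and the dienoyl-CoA reductase Decr1 0.13. Etfdh, which passes the electrons on to ubiquinone, had 0.27 (SE 0.078, adjusted p = 0.109), and the thioesterase Acot2 had 0.28. A second Acaa2 probe set, 1380504_at, went the other way (log2 change -0.37, adjusted p = 0.261), so the direction of Acaa2 depends on the probe set.

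None of the 4 microsomal genes passed at 50 mg/kg. Cyp4a1, a fatty acid omega-hydroxylase, read 11.08, 11.48, 11.21, 10.54 and 11.38 in vehicle, 11.31, 10.67, 10.81, 11.14 and 10.43 at 15 mg/kg, and 11.51, 11.03, 11.30, 11.18 and 11.35 at 50 mg/kg. The groups overlapped, and the log2 change at 50 mg/kg was 0.14 (95% interval -0.24 to 0.51, adjusted p = 0.817). It turned to -0.01 without vehicle replicate 4.

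Cyp4a3, another omega-hydroxylase, read 12.52, 12.18, 12.45, 12.56 and 12.60 in vehicle and 12.49, 12.30, 12.53, 12.49 and 12.75 at 50 mg/kg. The values overlapped almost fully, with a log2 change of 0.05 (95% interval -0.16 to 0.26, adjusted p = 0.890). The sign turned to -0.02 without vehicle replicate 2 and to -0.01 without 50 mg/kg replicate 5 or without the muscle and pancreas arrays. Probe set 1394844_s_at, whose annotation lists several genes, had a log2 change of -0.10.

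Acsl1 is a long-chain acyl-CoA synthetase that also sits on mitochondria. It read 13.08, 13.00, 12.98, 12.72 and 12.87 in vehicle and 13.09, 12.91, 13.02, 13.13 and 13.04 at 50 mg/kg (log2 change 0.10, SE 0.076, adjusted p = 0.615). A second Acsl1 probe set, 1388153_at, had a log2 change of 0.23 against vehicle (SE 0.11, adjusted p = 0.354) and of 0.30 against 15 mg/kg (adjusted p = 0.858). Slc27a2, a very long chain acyl-CoA synthetase also found in peroxisomes, read 13.04, 13.05, 12.98, 12.91 and 13.12 in vehicle and 13.10, 13.09, 13.20, 13.14 and 13.11 at 50 mg/kg (log2 change 0.11, SE 0.057, adjusted p = 0.442). Both genes overlapped between the groups.

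By compartment, the median log2 change at 50 mg/kg was 0.23 for the 5 measured peroxisomal genes, 0.17 for the 16 mitochondrial genes, 0.11 for the 4 microsomal genes and 0.20 for the 8 others, against 0.009 over all probe sets. Of these genes 1, 3, 0 and 0 rose. Restricted to genes known in a single compartment, the median was 0.61 for the 2 peroxisomal genes Ehhadh and Pex11a. It was 0.09 for the 2 microsomal genes Cyp4a1 and Cyp4a3. Ehhadh had 0.87 and Pex11a 0.36, while the second Pex11a probe set gave 0.05, so the 0.61 depends on the probe set used. The difference between compartments was not tested, since the genes are not replicates. In the plot of compartment medians, each array is summarised by its median deviation from the vehicle mean. The peroxisomal median was -0.21 to 0.18 on the vehicle arrays, -0.22 to 0.01 at 0.1 mg/kg, -0.03 to 0.30 at 15 mg/kg and 0.28 to 0.39 at 50 mg/kg. The mitochondrial median was -0.19 to 0.17 in vehicle and 0.13 to 0.23 at 50 mg/kg, and the microsomal median -0.16 to 0.12 and -0.06 to 0.16. By this median, the peroxisomal arrays at 50 mg/kg were above all vehicle arrays, whereas the mitochondrial and microsomal arrays overlapped with them. By the mean level of the genes, the mitochondrial arrays did not overlap either, at 11.352 to 11.466 against 10.962 to 11.349 in vehicle. The peroxisomal means were 9.767 to 10.053 against 9.320 to 9.764, and the microsomal means overlapped. The separation of peroxisomal from mitochondrial genes therefore depends on the summary used.

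**Figure D2:**
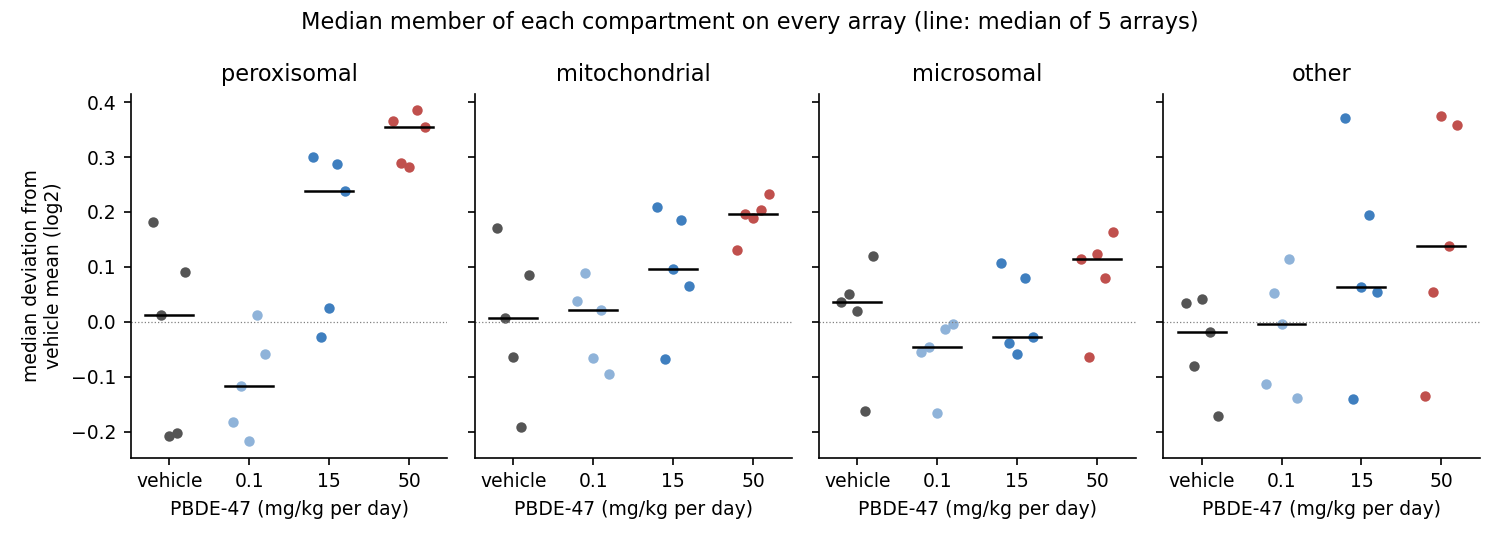
The median deviation of a compartment's genes from their vehicle mean (y axis, log2 units) on each of the 20 arrays, by dose (x axis), for 5 peroxisomal, 16 mitochondrial, 4 microsomal and 8 other genes. Points are arrays and lines the median of 5 arrays. At 50 mg/kg the peroxisomal points lie between 0.28 and 0.39, above the highest vehicle array at 0.18, and the other panels overlap with vehicle.

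Among the 8 remaining genes, which respond to PPARA but act outside the oxidation pathways, 0 passed at 50 mg/kg against vehicle. Angptl4, a secreted inhibitor of lipoprotein lipase, read 8.997, 8.88, 9.12, 9.16 and 8.95 in vehicle, 8.87, 8.47, 9.02, 9.36 and 8.38 at 0.1 mg/kg, 9.60, 8.87, 8.88, 9.36 and 9.64 at 15 mg/kg, and 9.80, 9.34, 9.56, 9.62 and 9.92 at 50 mg/kg. All arrays at 50 mg/kg were above all vehicle arrays, while the 15 mg/kg arrays fell into a low pair and a higher trio. The log2 change was 0.63 (SE 0.18, adjusted p = 0.106), and it passed when only these 2 groups were fitted (adjusted p = 0.0389).

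Cd36, a fatty acid uptake receptor that macrophages and endothelium also carry, was the only member with a negative change at 50 mg/kg. Cd36 read 9.78, 9.38, 9.35, 9.28 and 8.72 in vehicle and 8.68, 8.26, 9.56, 8.70 and 8.03 at 50 mg/kg, where replicate 3 was the sole array within the vehicle range. The log2 change was -0.66 (SE 0.35, adjusted p = 0.448). Of 7 measured Kupffer cell genes, 4 fell at 50 mg/kg, against 0.348% of all probe sets (C1qb by 0.57, C1qc by 0.55, Cd163 by 0.48 and Cd68 by 0.48 on the log2 scale). The mean of the 7 was 9.86 to 10.01 in vehicle, 9.53 to 10.04 at 0.1 mg/kg, 9.61 to 9.92 at 15 mg/kg and 9.21 to 9.59 at 50 mg/kg. Of 8 measured erythroid genes, 0 passed and 0 had a positive change at 50 mg/kg (median -0.38). Cd36 was highest on 15 mg/kg replicate 2 (9.89) and lowest on 15 mg/kg replicate 4 (7.92). On those arrays the erythroid mean was 11.15 and 9.07, and the Kupffer mean 9.63 and 9.62. The part of either list in the Cd36 values was not tested. In bulk tissue, fewer cells of a type and less RNA per cell cannot be told apart.

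Fgf21, a hepatic hormone of fasting, read 5.85, 7.96, 8.69, 9.74 and 7.66 in vehicle, 8.15, 8.65, 8.72, 9.14 and 9.42 at 0.1 mg/kg, 9.12, 8.69, 9.89, 6.95 and 8.86 at 15 mg/kg, and 7.84, 7.42, 10.21, 6.49 and 9.80 at 50 mg/kg. Its arrays ran from low to high within vehicle, 15 and 50 mg/kg alike, and the groups overlapped. The log2 change at 50 mg/kg was 0.37 (95% interval -1.08 to 1.83, adjusted p = 0.881). It became -0.16 without vehicle replicate 1, -0.09 without 50 mg/kg replicate 3 and 1.16 without the muscle and pancreas arrays.

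The members varied more within groups than the typical probe set: the within-group SD had a median of 0.19 over the 33 genes and 0.15 over all probe sets, and 21 of 33 were over the latter. Member means ran from 7.02 to 13.38, above the array medians of 5.605 to 5.648, and the spread was not compared with probe sets of like level. The widest were Fgf21 (1.23), the cytosolic thioesterase Acot1 (0.93), Cd36 (0.61) and Plin2, a lipid droplet coat protein (0.39). The narrowest was Slc27a2 at 0.071, followed by Fabp1, the liver fatty acid binding protein, at 0.097. Acot1 spanned 8.09 to 11.02 over the arrays, with vehicle replicates 1 and 3 (10.73 and 10.63) far above the other vehicle arrays (8.14 to 8.64). Its log2 change at 50 mg/kg of 0.91 had a 95% interval of -0.20 to 2.02 (adjusted p = 0.497). Probe set 1388211_s_at, whose annotation lists several genes, gave 0.51 and was high on the same 2 vehicle arrays (9.27 and 8.86, the others 7.20 to 7.73). The rest of these 8 genes, Plin2, the pantetheinase Vnn1, the transcription factor Creb3l3 and Fabp1, had log2 changes of 0.22, 0.18, 0.17 and 0.02. A second, dimmer Plin2 probe set, 1382680_at, went the other way (-0.46, SE 0.23, adjusted p = 0.407), so the direction of Plin2 depends on the probe set.

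**Figure D3:**
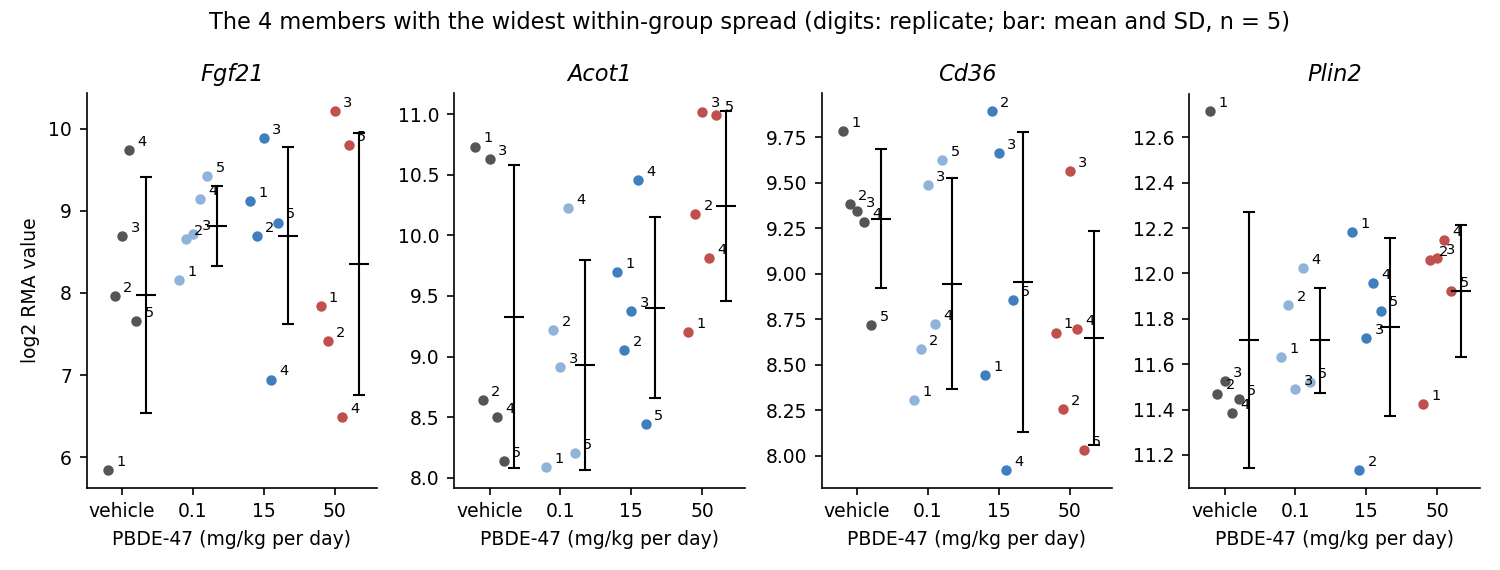
The log2 RMA value (y axis) of Fgf21, Acot1, Cd36 and Plin2 on each array by dose (x axis), with replicate numbers as digits and the mean and SD of 5 arrays as bars. Vehicle replicate 1 is the lowest array for Fgf21 (5.85) and the highest for Plin2 (12.71), and the groups overlap for all 4 genes.

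Vehicle replicate 1 stood at an edge for many of the genes. It was the highest of the 5 vehicle arrays for 15 of the 33 genes, vehicle replicate 5 was so for 11, and vehicle replicate 4 was the lowest for 18. The like counts over all probe sets are not given here, and genes of a pathway can move together. For Plin2, vehicle replicate 1 read 12.71 and the other vehicle arrays 11.38 to 11.52. Its muscle and pancreas means, 4.25 and 4.54, lay within the range of the arrays without those transcripts. Without vehicle replicate 1, 31 of 33 changes at 50 mg/kg were positive, the median was 0.20 and 4 genes passed, with Slc25a20 in and Ehhadh out (0.83, adjusted p = 0.0926).

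At 15 mg/kg against vehicle, 0 of the 33 genes passed (limma), against 0.116% of all probe sets (0.0934% higher and 0.0226% lower). At an unadjusted p under 0.05, 4 were higher and 0 lower, against 7.6% and 4.54%. The change was positive for 29 of 33, against 54.1%, and the median was 0.072 against 0.013. The 4 genes were Pdk4, Creb3l3, Ehhadh and Eci1, with log2 changes of 0.55, 0.30, 0.47 and 0.28. Pdk4 came nearest to the threshold (SE 0.12, adjusted p = 0.0823), with the 15 mg/kg arrays all above the vehicle arrays, as was so for 1.57% of all probe sets. It passed without 15 mg/kg replicate 2 (0.62, adjusted p = 0.0412). Cyp4a1 had its most negative change here, at -0.26 (adjusted p = 0.572).

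At 0.1 mg/kg against vehicle, 0 of the 33 genes and 0 of all probe sets passed (limma), 0% in either direction. At an unadjusted p under 0.05, 2 genes were lower and 0 higher, against 3% and 3.88% of all probe sets. The change was negative for 24 of 33 genes and positive for 9, against 53.2% positive over all probe sets, with a median of -0.05 against 0.008. The lower pair were Pex11a (log2 change -0.42, adjusted p = 0.676) and Vnn1 (-0.25, adjusted p = 0.724). Of the 5 arrays at 0.1 mg/kg, 3 carried high muscle means and 1 a high pancreas mean, so a single array remained without them and the part of other tissue in these values was not tested.

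**Figure D4:**
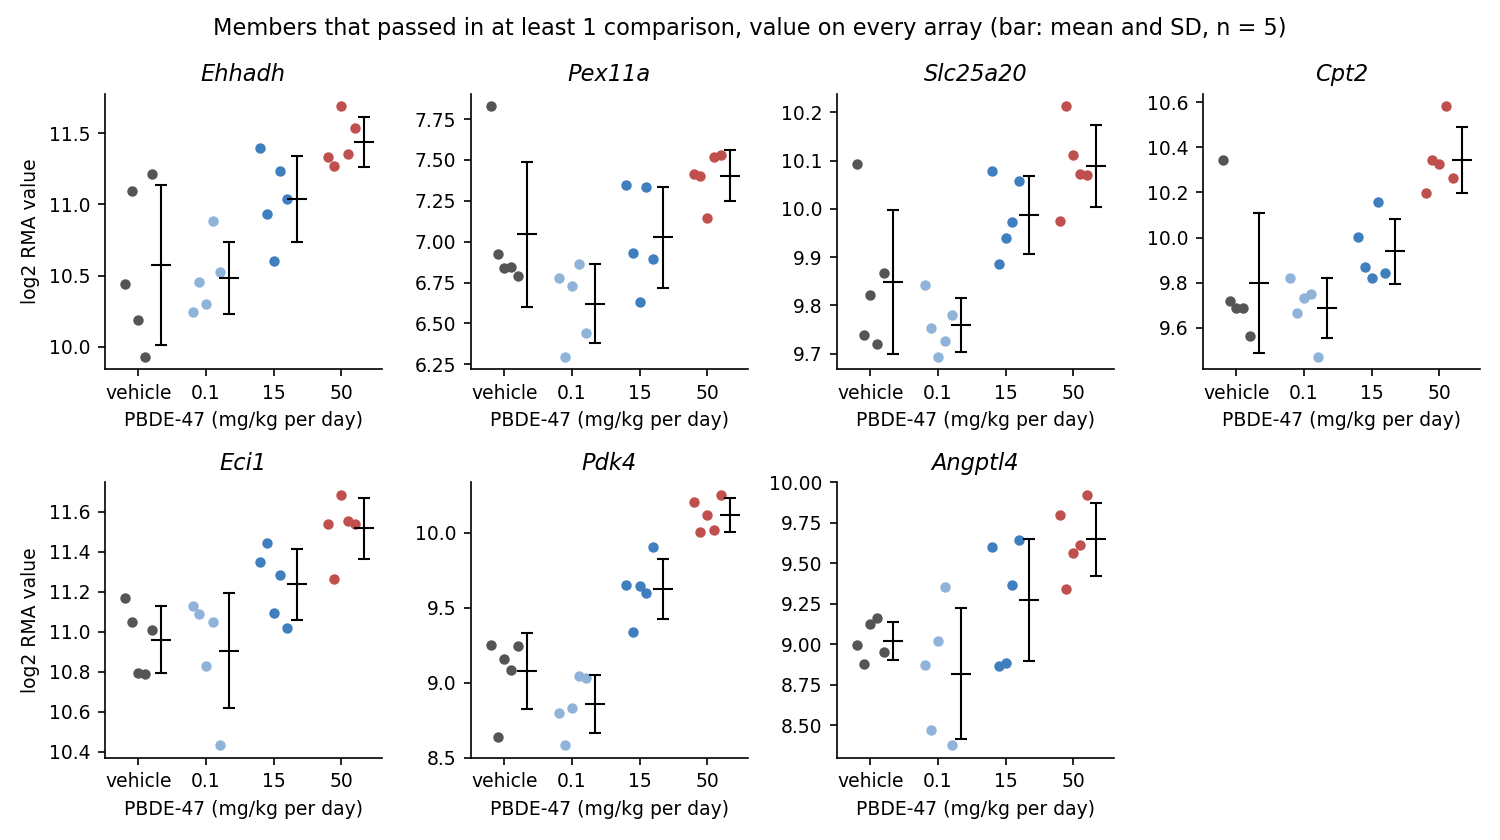
The log2 RMA value (y axis) of the 7 genes that rose at 50 mg/kg against vehicle or against 0.1 mg/kg, on each array by dose (x axis), with the mean and SD of 5 arrays. For Pdk4 the arrays at 50 mg/kg (10.00 to 10.25) lie above those at 15 mg/kg (9.34 to 9.90), which lie above vehicle, and for Pex11a and Cpt2 a single vehicle array lies at or above the level of the 50 mg/kg arrays.

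Between doses, 50 mg/kg was compared with 15 and with 0.1 mg/kg. These comparisons share the 50 mg/kg arrays with the one against vehicle, so their values are given side by side and are not a repeat of it. Against 15 mg/kg, 0 genes passed (limma), as did 0 of all probe sets (0%). At an unadjusted p under 0.05, 6 were higher and 0 lower, against 2.66% and 2.97%. The change was positive for 26 of 33, against 46.7%, with a median of 0.10 against -0.008. Pdk4 differed by 0.49 (SE 0.12, adjusted p = 0.655) and Cpt2 by 0.40 (SE 0.12, adjusted p = 0.858), and for both every array at 50 mg/kg was above every array at 15 mg/kg, as was so for 0.474% of all probe sets.

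Against 0.1 mg/kg, 7 of the 33 genes were higher at 50 mg/kg, against 0.583% of all probe sets, and 0 were lower, against 0.0612% (0.644% in both directions). At an unadjusted p under 0.05, 14 were higher and 0 lower, against 5.06% and 3.83%. The change was positive for 31 of 33, against 47.6%, and its median was 0.18 against -0.006. Besides Pdk4 (log2 change 1.26 against 0.1 mg/kg, 1.04 against vehicle), Ehhadh (0.96 and 0.87), Cpt2 (0.65 and 0.54) and Eci1 (0.61 and 0.56), these were Angptl4 (0.83 and 0.63), Pex11a (0.78 and 0.36) and Slc25a20 (0.33 and 0.24). Their adjusted p ran from 7.8e-06 for Pdk4 to 0.0450 for Pex11a. The second Pex11a probe set, 1387740_at, did not pass against 0.1 mg/kg (0.44, adjusted p = 0.4705), though its groups did not overlap. In Angptl4 the groups overlapped through 0.1 mg/kg replicate 4 at 9.36. In the other 6 they did not, and in all 9 of 33 genes had no overlap, against 1.83% of all probe sets. By compartment 2 peroxisomal, 4 mitochondrial, 0 microsomal and 1 other gene passed.

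The count against 0.1 mg/kg fell from 7 to between 2 and 4 when 0.1 mg/kg replicate 1, 2, 3 or 5, or 50 mg/kg replicate 1, 3, 4 or 5, was left out. Pdk4 and Cpt2 passed in every such fit, with log2 changes of 1.19 to 1.31 and 0.59 to 0.69. The call of Pex11a was lost in 14 of the 20 left-out fits (log2 change 0.70 to 0.85, adjusted p up to 0.142), those of Ehhadh and Slc25a20 in 8, of Angptl4 in 7 and of Eci1 in 5, without a change of sign. Without the muscle and pancreas arrays, which leaves a lone array at 0.1 mg/kg that is assumed to vary like the others, Pdk4 alone passed (1.29, adjusted p = 0.0381).

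Read across all groups, the mean was highest at 50 mg/kg for 26 of 33 genes, against 25.3% of all probe sets. The means increased from vehicle to 15 to 50 mg/kg for 23 genes, against 19.5%. The mean was lowest at 0.1 mg/kg for 22 genes, against 20.7%, and the full order from 0.1 mg/kg to vehicle to 15 to 50 mg/kg held for 18 genes, against 4.91%. All 5 peroxisomal genes had their highest mean at 50 mg/kg, as did 13 of 16 mitochondrial, 3 of 4 microsomal and 5 of 8 other genes. The exceptions were Cpt1a, Hadh, Decr1, Cyp4a3, Cd36, Fgf21 and Creb3l3. Genes of a pathway are read from the same livers and can move together, so these shares are descriptions.

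Genes of the same pathways beyond the 34 were read from lists of 36 peroxisomal, 21 mitochondrial, 11 microsomal and 16 regulatory genes, of which 31, 19, 9 and 15 were measured. These lists, too, were chosen with earlier results of these data known. At 50 mg/kg against vehicle 2 of the 31 peroxisomal genes rose and 0 fell, against 0.586% and 0.348% of all probe sets, with a median of 0.21 against 0.009. At an unadjusted p under 0.05, 13 were higher and 2 lower, against 6.89% and 6.13%. Pecr, a peroxisomal enoyl-CoA reductase of chain elongation, read 11.91, 11.64, 11.49, 11.50 and 11.72 in vehicle, 12.07, 11.95, 12.05, 12.16 and 12.08 at 15 mg/kg, and 12.42, 12.14, 12.15, 12.27 and 12.22 at 50 mg/kg. Both dose groups lay above vehicle on every array. Pecr rose by 0.59 at 50 mg/kg (SE 0.077, adjusted p = 0.000345) and by 0.41 at 15 mg/kg (SE 0.077, adjusted p = 0.0338), on the log2 scale. The call at 50 mg/kg held with each array left out and was lost without the muscle and pancreas arrays (0.51, adjusted p = 0.178). That at 15 mg/kg was lost with only the 2 groups fitted (adjusted p = 0.243), without the muscle and pancreas arrays (0.374) and in 11 of 20 left-out fits, at 0.37 to 0.47 and adjusted p up to 0.110: those without vehicle replicate 2, 3, 4 or 5, 0.1 mg/kg replicate 4, 15 mg/kg replicate 1, 3, 4 or 5, or 50 mg/kg replicate 4 or 5.

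Acot4, a peroxisomal thioesterase of dicarboxylic acyl-CoA, read 8.09, 7.76, 8.03, 7.60 and 7.22 in vehicle and 8.18, 8.57, 9.04, 8.67 and 8.81 at 50 mg/kg. The groups did not overlap, and Acot4 was 1.88-fold higher at 50 mg/kg (log2 change 0.91, SE 0.19, adjusted p = 0.0219). The call was lost without vehicle replicate 4 or 5 or 50 mg/kg replicate 3, 4 or 5 (adjusted p up to 0.0632), without the muscle and pancreas arrays (1.07, adjusted p = 0.117) and with only the 2 groups fitted (0.0732). Against 0.1 mg/kg, Pecr (0.50), Acot4 (1.04) and Abcd3, a peroxisomal fatty acid transporter (0.33, adjusted p = 0.0497), were higher at 50 mg/kg. Abcd3 lost its call there in 16 of 20 left-out fits, all but those without 0.1 mg/kg replicate 4, 15 mg/kg replicate 3 or 4, or 50 mg/kg replicate 5, at 0.30 to 0.37. Without the muscle and pancreas arrays all 3 calls against 0.1 mg/kg were lost (adjusted p = 0.974 each).

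In the mitochondrial, microsomal and regulatory lists 0 genes passed in any of the 5 comparisons (limma), and at 50 mg/kg an unadjusted p under 0.05 was seen for 3 higher and 1 lower, 3 higher and 1 lower, and 0 higher and 2 lower genes, in that order, out of 19, 9 and 15, against 6.89% higher and 6.13% lower over all probe sets. The median log2 changes at 50 mg/kg were 0.08, 0.14 and -0.06. The smallest p in each belonged to Acad9 (an acyl-CoA dehydrogenase also needed for complex I, 0.44, adjusted p = 0.0971, and 0.0380 with a block on the first digit of the description number, where it passed), Pcca (a propionyl-CoA carboxylase subunit, 0.24) and, in the microsomal list, Aldh3a2 (a fatty aldehyde dehydrogenase, 0.24) and Acsl3 (an acyl-CoA synthetase, 0.36). Among regulators these were Rxrb (itself an RXR, -0.16) and Ppargc1a (a coactivator of oxidative genes, -0.29). The widest change in the microsomal list was that of Cyp4a8, another Cyp4a gene, named here after its values were seen. Its level was 5.68 ± 1.67 (SD, n = 5) in vehicle, 5.51 ± 0.35 at 0.1 mg/kg, 7.12 ± 1.95 at 15 mg/kg and 7.14 ± 0.95 at 50 mg/kg. The log2 change was 1.45 at 50 mg/kg (95% interval -0.19 to 3.09, adjusted p = 0.454) and 1.43 at 15 mg/kg (adjusted p = 0.475).

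Ppara itself read 6.65, 6.93, 6.60, 6.87 and 7.18 in vehicle, 7.14, 6.75, 6.57, 6.60 and 6.76 at 0.1 mg/kg, 6.97, 6.91, 7.02, 6.76 and 7.02 at 15 mg/kg, and 6.89, 7.59, 7.31, 6.97 and 6.81 at 50 mg/kg. The groups overlapped (log2 change at 50 mg/kg 0.27, 95% interval -0.03 to 0.56, adjusted p = 0.444).

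Set beside the promoter letters, the 6 genes with a match of up to 2 mismatches, Crat, Slc25a20, Acadvl, Slc27a2, Fabp1 and Creb3l3, had log2 changes at 50 mg/kg of 0.23, 0.24, 0.14, 0.11, 0.02 and 0.17, and none passed against vehicle. Of these, Slc25a20 did pass at 50 mg/kg against 0.1 mg/kg (0.33, adjusted p = 0.0270), and against vehicle once vehicle replicate 1 was left out (adjusted p = 0.0267). The 4 genes that rose against vehicle, Pdk4, Cpt2, Eci1 and Ehhadh, had no such match in the window. Whether a match goes with a rise was not tested. Elements of PPARA targets can lie outside this window, which was not searched.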

How the data were processed

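The authors deposited log2 values of 31099 probe sets on 20 arrays, made with RMA per the submitters' processing notes. RMA corrects background, equalises the distributions of arrays and summarises probes by median polish. Its version is not given in the sources used here, nor whether the arrays were run as 1 set. RMA compresses high values, and low values carry mostly background. Depth does not apply to arrays, whose number limits the precision. Titles gave the groups.

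Without 57 controls, 31042 probe sets were tested, with no filter on low values. GEO's platform annotation gave 1 symbol for 20826, several for 436 and none here for 9780. Each gene was read from the brightest of its single-symbol sets. All 33 measured members carried the same symbol in the RefSeq gene table by gene ID.

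One limma 3.58.1 fit (R 4.3.3, lmFit, contrasts.fit, eBayes) with 4 group means gave 5 contrasts. Adjusted p is Benjamini-Hochberg per contrast, two-sided, called under 0.05. The SE and 95% intervals are those of the fit. Per-array values are printed for members called in any contrast, for the 2 smallest p per compartment at 50 mg/kg, for the smallest p at the other doses and for a fixed set of index genes. Of the pathway lists, called genes are named and otherwise the 2 with the smallest p. The 4 members shown for their spread were chosen after their values were seen. Members and lists were chosen with earlier results of these data known.

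Alternatives were a replicate block, a block for the first digit of the description number, only the groups compared, equal medians, a mean filter at 6, an intensity trend with robust shrinkage, averaged probe sets, arrays with muscle or pancreas transcripts left out, and each array left out. The code was tested on simulated data. The promoter search used the first window of each gene. Python 3.11.15 and matplotlib 3.10.9 were used for the promoter search and the figures.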

Additional observations from a re-analysis of the deposited data

Results flagged for a closer look

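Groups of 5 arrays were screened for a lowest or highest array whose gap to its neighbour took up most of the group's range (over 0.71 of it), in 24 named genes and 96 groups. There were 6 such arrays, and chance gives about 1 in 20 groups. Vehicle replicate 1 accounted for 4 of them. It was the highest vehicle array for Pex11a (7.83, next 6.93), Cpt2 (10.34, next 9.72) and Abcd3 (10.85, next 10.78) and the lowest for Rxrb (6.096, next 6.254). Vehicle replicate 2 was the lowest vehicle array for Pdk4 (8.639, next 9.085), and 50 mg/kg replicate 2 the lowest at its dose for Pcca (9.556, next 9.776).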

How the results depend on the processing

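The count of members that rose at 50 mg/kg against vehicle was 4 and ranged from 1 to 4 with an array left out. It was 1 without the arrays that carry muscle or pancreas transcripts. At 15 mg/kg it was 0, ranged from 0 to 1 with an array left out and was 1 with a replicate block, where Pdk4 passed (adjusted p = 0.00619). Against 0.1 mg/kg it was 7, ranged from 2 to 7 with an array left out and was 1 without the muscle or pancreas arrays. At 0.1 mg/kg against vehicle and at 50 against 15 mg/kg it was 0 under every alternative run. Pdk4 rose at 50 mg/kg under all of them.

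The replicate numbers do not pair the arrays: over 30 pairs of arrays with the same number, the correlation of deviations from group means ran from -0.362 to 0.288, and 4 of 20 arrays matched best with their own number. With the replicate block Ehhadh lost its call at 50 mg/kg (adjusted p = 0.0750) and against 0.1 mg/kg (0.0566), and Abcd3 against 0.1 mg/kg. The block on the first digit of the description number ended the same 3 calls. With only the 2 groups fitted, the calls of Ehhadh, Cpt2 and Acot4 at 50 mg/kg, of Pecr at 15 mg/kg and of Eci1, Angptl4 and Abcd3 against 0.1 mg/kg were lost, and Angptl4 passed at 50 mg/kg. Of the named genes, 3 that did not pass altered sign, and the cause was not tested: Cyp4a1 at 50 mg/kg (0.14) ranged from -0.01245 to 0.2218 with an array left out, Cyp4a3 (0.05) from -0.02068 to 0.1024 and was -0.005647 without the muscle or pancreas arrays, and Fgf21 (0.37) ranged from -0.1604 to 0.838.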
